A study of Mus musculus with 72 samples.

Results

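The comparison described here is the loss of the liver clock in germ-free (GF) mice at ZT22, 22 h after lights on and late in the dark, active phase. It was set by its labels alone and covers 6 of the 72 liver RNA-seq libraries of the series, 3 from GF mice with liver-specific deletion of Bmal1 (LKO) and 3 from GF controls (WT). All mice were adult males of strain C57BL/6 by the labels (C57BL/6J in the study's methods), carried loxP-flanked Bmal1 (Bmal1 fl/fl), lived under 12:12 light and dark and ate autoclaved chow ad libitum, and the LKO mice also carried Albumin-Cre. The Albumin promoter drives Cre in hepatocytes, so other liver cells keep Bmal1, and since every LKO mouse and no WT mouse carried Cre, loss of Bmal1 and the Cre allele itself cannot be told apart. GF mice were kept without microbes in isolators. The test used 1 estimate of the spread over 12 libraries at ZT22, the 6 GF libraries and those of specific pathogen-free (SPF) WT and LKO mice, which have a gut microbiota. Each library came from 1 mouse, so the p-values measure the spread between mice. The 6 GF libraries held 17369927 to 19502095 counts, and no pair of the 12 held identical values. Principal components of the 12 libraries were taken over the most variable genes only. The first held 51.3% of the variance of those genes and separated both genotypes. GF WT lay between -14.0 and -13.3 and GF LKO between 15.3 and 16.2.

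The liver clock is a feedback loop. BMAL1, the product of Arntl, pairs with CLOCK or NPAS2 and binds E-box sequences to activate the Per, Cry and Rev-erb genes, whose products then repress it. REV-ERBs and RORs compete on RORE sequences in Arntl and Npas2, and the PAR bZIP factors DBP, TEF and HLF carry the rhythm to many metabolic genes through D-box sequences. PPARα, a fatty acid receptor, drives fat oxidation in liver and binds repeats known as DR1.

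Promoters of chosen genes that hold a motif are shown as examples of these elements, with the motif in capitals. Windows without a motif are not shown. They are RefSeq sequences of GRCm38.p6, 5′ to 3′ on the gene's strand, from within 250 bases before an annotated start and without annotated exon bases. The motifs searched on both strands were the E-box CACGTG, the D-box TTATGTAA or TTACGTAA, the RORE TAGGTCA or TGGGTCA, and the DR1 AGGNCANAGGNCA. Cry1 (chr10:85185065-85185304, minus strand), Tef (chr15:81811164-81811413, plus strand) and Gpx6 (chr13:21311953-21312124, plus strand) each held 1 E-box. Alb (chr5:90460620-90460869, plus strand) held 2 D-boxes, and Ces1e (chr8:93229620-93229869, minus strand) and Ces1g (chr8:93337309-93337459, minus strand) 1 each. Fabp1 (chr6:71199629-71199826, plus strand) held 1 DR1, whose letters overlap those of 1 RORE. Among genes not shown, Arntl, Cry2, Cpt1a, Acsl1 and Acadl held none of these motifs in their windows.
Cry1: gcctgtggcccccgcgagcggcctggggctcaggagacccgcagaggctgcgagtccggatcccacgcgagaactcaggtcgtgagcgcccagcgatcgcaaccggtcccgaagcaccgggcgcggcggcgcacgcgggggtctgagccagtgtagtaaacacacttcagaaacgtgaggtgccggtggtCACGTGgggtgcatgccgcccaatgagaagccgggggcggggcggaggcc
Tef: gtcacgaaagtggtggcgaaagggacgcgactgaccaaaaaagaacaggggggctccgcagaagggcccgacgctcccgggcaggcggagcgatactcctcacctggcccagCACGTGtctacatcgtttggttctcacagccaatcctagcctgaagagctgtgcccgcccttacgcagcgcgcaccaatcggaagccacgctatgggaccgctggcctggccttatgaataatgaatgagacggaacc
Gpx6: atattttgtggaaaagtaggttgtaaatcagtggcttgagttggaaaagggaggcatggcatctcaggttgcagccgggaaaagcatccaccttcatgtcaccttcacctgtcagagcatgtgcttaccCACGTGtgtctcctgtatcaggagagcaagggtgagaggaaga
Alb: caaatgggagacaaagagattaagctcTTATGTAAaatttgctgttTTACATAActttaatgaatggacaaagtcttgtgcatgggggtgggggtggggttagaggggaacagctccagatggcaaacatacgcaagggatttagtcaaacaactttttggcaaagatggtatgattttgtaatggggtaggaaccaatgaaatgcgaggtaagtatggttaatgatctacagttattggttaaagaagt
Ces1e: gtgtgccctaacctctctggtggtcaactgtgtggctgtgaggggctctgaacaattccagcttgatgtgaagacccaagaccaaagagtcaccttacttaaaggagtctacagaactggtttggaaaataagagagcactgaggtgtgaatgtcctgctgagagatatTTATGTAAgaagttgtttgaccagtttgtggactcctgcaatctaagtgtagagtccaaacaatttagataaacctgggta
Ces1g: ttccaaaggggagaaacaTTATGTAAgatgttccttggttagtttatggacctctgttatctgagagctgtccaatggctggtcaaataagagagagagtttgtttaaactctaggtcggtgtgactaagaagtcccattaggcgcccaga
Fabp1: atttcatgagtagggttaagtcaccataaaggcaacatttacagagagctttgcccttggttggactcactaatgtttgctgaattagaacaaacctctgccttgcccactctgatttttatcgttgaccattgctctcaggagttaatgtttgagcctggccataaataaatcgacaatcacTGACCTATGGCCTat

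Expression is given as CPM, counts per 1000000 after TMM scaling, and a gene is called changed at an adjusted p under 0.05 by edgeR's quasi-likelihood test. In GF mice at ZT22 603 of 13576 tested genes were called (4.44%), 263 of them higher in LKO (1.94%) and 340 lower (2.50%). The median size of the change among them was 1.05 on the log2 scale, and 315 (2.32% of genes tested) changed by at least 1. CPM did not overlap between the groups for 601 of the 603, against 19.2% of all genes tested (LKO higher in 9.50%, lower in 9.70%). Leaving out 1 library lowered the count to 357 without WT replicate 2 and 389 without LKO replicate 2, and 288 genes, 114 higher and 174 lower, were called with any of the 6 left out. In bulk liver, fewer cells of a type and less RNA per cell cannot be told apart. Below, "lost without" names a library whose omission took a gene's adjusted p to the value in brackets, above 0.05. Calls between GF LKO and GF WT at ZT22 with no such note held with each of the 6 libraries left out. This does not cover genes named only for a motif, or the tests of a difference between effects.

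The positive limb of the clock moved in both directions. Arntl (ENSMUSG00000055116, chromosome 7, 113207465 to 113314126, GRCm38), the deleted gene, measured 41.4, 34.3 and 34.5 CPM in GF WT and 9.84, 11.1 and 13.7 in GF LKO. The groups did not overlap, although reads of the deleted and the retained exons were summed (log2 fold change -1.67, SE 0.15, adjusted p = 1.95e-05). Its partner Clock measured 127, 119.8 and 120.0 CPM in GF WT and 121, 131 and 137 in GF LKO, within the spread of the mice (adjusted p = 0.832). Npas2, which can stand in for Clock, measured 13.1, 11.3 and 11.4 CPM in GF WT and 26.5, 30.9 and 45.4 in GF LKO. Npas2 was thus higher in every LKO mouse (log2 fold change 1.52, SE 0.20, adjusted p = 0.000341). Rora measured 182, 96.6 and 124 CPM in GF WT and 141, 138 and 174 in GF LKO, with overlapping groups (adjusted p = 0.802).

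The negative limb was higher in LKO mice for the Cry genes and Per2. Cry2, a repressor of BMAL1, measured 24.2, 23.1 and 22.7 CPM in GF WT and 42.1, 38.6 and 47.2 in GF LKO and rose without overlap (log2 fold change 0.87, SE 0.11, adjusted p = 0.000205). Its paralog Cry1 measured 59.9, 48.1 and 50.6 CPM in GF WT and 87.1, 90.9 and 94.9 in GF LKO. Cry1 was higher in every LKO mouse (log2 fold change 0.78, SE 0.20, adjusted p = 0.0397), yet lost without WT replicate 1 (0.0533), WT replicate 2 (0.171), WT replicate 3 (0.125), LKO replicate 1 (0.0655), LKO replicate 2 (0.108) or LKO replicate 3 (0.11). Per2, the partner of the CRYs, measured 11.98, 14.01 and 16.5 CPM in GF WT and 23.5, 25.9 and 38.4 in GF LKO and rose (log2 fold change 1.05, SE 0.25, adjusted p = 0.0246; lost without WT replicate 1 (0.0977), WT replicate 2 (0.0971) or LKO replicate 3 (0.126)). Per3 measured 1.12, 2.64 and 3.59 CPM in GF WT and 3.12, 4.201 and 5.01 in GF LKO, with overlapping groups and no call (adjusted p = 0.324). Per1 was scattered, with 25.1, 17.1 and 2.97 CPM in GF WT and 17.9, 9.64 and 23.9 in GF LKO (adjusted p = 0.965). Nr1d2 (REV-ERBβ) measured 15.7, 13.7 and 12.1 CPM in GF WT and 9.25, 7.87 and 7.24 in GF LKO and fell (log2 fold change -0.77, SE 0.18, adjusted p = 0.0223; lost without WT replicate 1 (0.0868), WT replicate 2 (0.0704), LKO replicate 2 (0.087) or LKO replicate 3 (0.108)). Nr1d1 (REV-ERBα) was low in both genotypes, 5.21, 0.517 and 2.105 CPM in GF WT and 0.645, 0.947 and 0.654 in GF LKO. Its groups overlapped, with 1 WT mouse above the rest (adjusted p = 0.196, and 0.0406 without WT replicate 2).

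Output factors of the clock split. Tef measured 48.96, 59.9 and 44.6 CPM in GF WT and 92.04, 101 and 112 in GF LKO and rose without overlap (log2 fold change 0.99, SE 0.12, adjusted p = 0.000227). Dbp, low in both genotypes at this hour, measured 0.745, 1.09 and 0.929 CPM in GF WT and 3.01, 2.84 and 1.63 in GF LKO. It rose (log2 fold change 1.43, SE 0.34, adjusted p = 0.0301; lost without WT replicate 1 (0.113), WT replicate 2 (0.0722), WT replicate 3 (0.0916), LKO replicate 1 (0.105) or LKO replicate 2 (0.11)). Hlf measured 38.9, 53.6 and 60.2 CPM in GF WT and 42.9, 49.4 and 43.02 in GF LKO and its groups overlapped (adjusted p = 0.727). Nfil3, a repressor that binds the same D-boxes, measured 74.5, 58.6 and 45.7 CPM in GF WT and 39.1, 34.02 and 27.9 in GF LKO and fell (log2 fold change -0.82, SE 0.20, adjusted p = 0.0363; lost without WT replicate 1 (0.145), WT replicate 2 (0.0976), LKO replicate 2 (0.11) or LKO replicate 3 (0.158)). Of the clock genes listed, 3 of 5 tested activators, 4 of 8 repressors and 3 of 11 outputs were called, against 4.44% of all genes. Among the 3 activators was Arntl, the gene deleted by design, so its call is no separate result. Rorb, Bhlhe41 and Ciart were too low to test.

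**Figure D1:**
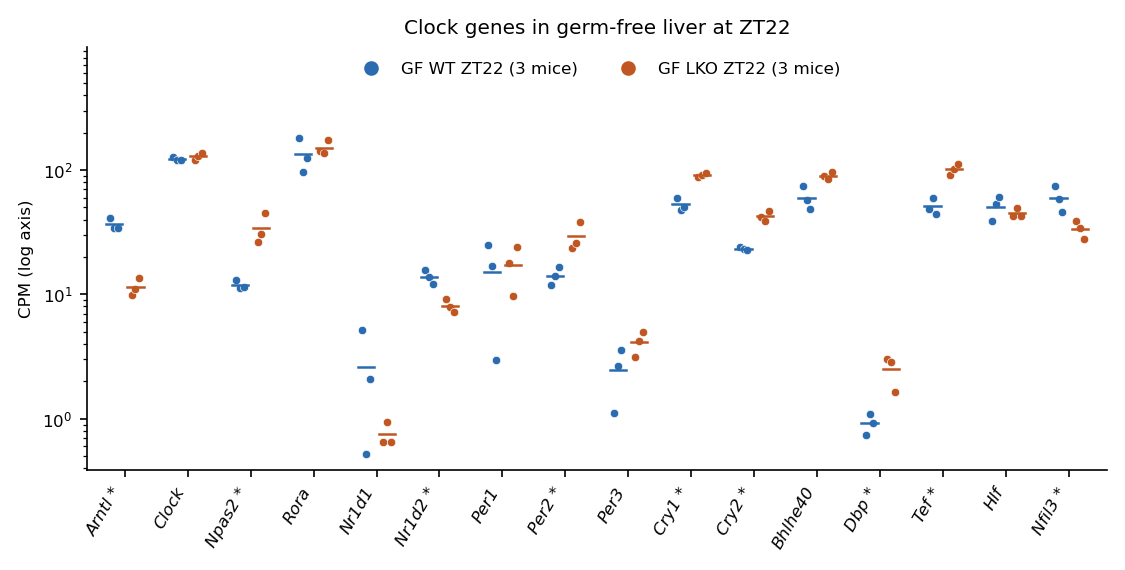
Expression of 16 clock genes in germ-free liver at ZT22. The y axis is CPM on a log scale, each point is 1 mouse (blue, GF WT; orange, GF LKO), bars are means of 3 mice, and asterisks mark an adjusted p under 0.05. Arntl points of GF LKO mice lie between 9.84 and 13.7 CPM, below all GF WT points, and Npas2, Cry2 and Tef points lie above them.

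The largest decreases, all in protein-coding genes except Gm32468 and Gm19522, joined genes of varied function. Gm32468 had 361 counts over the WT libraries and 0 over the LKO libraries, which makes it at least 112-fold lower, taking 3 counts over the group as the floor. Rgs16, a regulator of G protein signalling, measured 16.8, 3.67 and 1.92 CPM in GF WT and 0.0538, 0 and 0.109 in GF LKO. With 365 counts over the WT and 3 over the LKO libraries it was 114-fold lower relative to library totals (95% Clopper-Pearson exact interval 38.6 to 554, counting error only; adjusted p = 0.00234). Nat8, an acetyltransferase of cysteine conjugates, measured 20.97, 33.3 and 39.1 CPM in GF WT and 0.161, 1.302 and 0.218 in GF LKO (log2 fold change -5.82, SE 0.49, adjusted p = 8.24e-06). Both were near absent in LKO mice. Mme, which encodes the peptidase neprilysin, measured 99.7, 75.6 and 82.9 CPM in GF WT and 2.15, 3.55 and 3.05 in GF LKO (log2 fold change -4.88, SE 0.32, adjusted p = 1.16e-06). Gpx6, a glutathione peroxidase, measured 12.2, 11.4 and 12.6 CPM in GF WT and 0.484, 0.473 and 0.381 in GF LKO (log2 fold change -4.74, SE 0.28, adjusted p = 5.36e-07). Neither gene overlapped between genotypes, which was a condition for being named among the largest changes. Cyp2b9, a P450 enzyme with a female bias, varied among WT mice, 0.993, 8.44 and 19.1 CPM in GF WT and 0, 0.473 and 0 in GF LKO (log2 fold change -5.93, SE 1.34, adjusted p = 0.0199; lost without WT replicate 3 (0.0758), LKO replicate 1 (0.0843) or LKO replicate 3 (0.0947)). Slc16a5, of the monocarboxylate transporter family, and Spsb4, a SOCS-box protein, fell too (log2 fold changes -4.09 and -3.95). Gm19522, annotated as antisense, fell by 3.46 on the log2 scale, and since the counting ignored strand its reads cannot be told from those of an overlapping gene.

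Lpl was among the largest increases, which were likewise named only where the groups did not overlap. It encodes lipoprotein lipase, which frees fatty acids from circulating triglyceride and is low in adult liver. It measured 78.9, 61.6 and 48.6 CPM in GF WT and 1021, 852 and 817 in GF LKO (log2 fold change 3.83, SE 0.26, adjusted p = 1.16e-06). Moxd1, a copper monooxygenase, measured 6.02, 12.5 and 6.87 CPM in GF WT and 573, 519 and 328 in GF LKO (log2 fold change 5.80, SE 0.65, adjusted p = 9.95e-05). Every LKO mouse was far above every WT mouse for both. Sult1e1, which inactivates estrogens by sulfation, measured 1.18, 2.07 and 4.89 CPM in GF WT and 37.3, 258 and 142 in GF LKO. It rose in all LKO mice but over a wide range (log2 fold change 5.75, SE 0.62, adjusted p = 7.3e-05). Tox2, a transcription factor, measured 0.558, 0.402 and 0.124 CPM in GF WT and 13.4, 14.7 and 13.9 in GF LKO (log2 fold change 5.25, SE 0.35, adjusted p = 1.16e-06). It was almost silent in WT mice and even in LKO mice. Cdx4, a homeobox factor, had 0, 0.0574 and 0 CPM in GF WT and 2.53, 6.57 and 3.16 in GF LKO, with 1 count over the WT and 216 over the LKO libraries (231-fold higher relative to library totals, 95% exact interval 41.1 to 9170, counting error only; adjusted p = 7.11e-05). Ntrk2, the receptor of BDNF, had 0.683, 0.115 and 0.248 CPM in GF WT and 3.98, 16.98 and 5.88 in GF LKO (log2 fold change 4.67, SE 0.66, adjusted p = 0.000651). Both were near 0 in WT mice. Gulp1, an engulfment adaptor, rose by 3.89 on the log2 scale, Defb1, a defensin, by 3.63, Tuba8, an alpha-tubulin, by 3.59 and Hebp2, a heme-binding protein, by 3.38. The noncoding 4930459C07Rik and Gm11454 rose by 6.78 and 4.56.

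Many genes of fat oxidation were lower in GF LKO mice. Of 24 tested genes of mitochondrial fatty acid oxidation 12 fell (2.50% of all genes fell) and 0 rose, and all 24 had a negative log2 fold change. Their median was -0.56, beside 0.000592 over all genes tested. The 12 became 7 without WT replicate 2 or WT replicate 3 and 5 without LKO replicate 1. They became 8 without LKO replicate 3 and 9 without WT replicate 1 or LKO replicate 2. Of the 12, 5 were called with any of the 6 libraries left out. Fabp1, which carries fatty acids in the hepatocyte, measured 5054, 5692 and 6114 CPM in GF WT and 2329, 2535 and 2381 in GF LKO (log2 fold change -1.22, SE 0.21, adjusted p = 0.00271). Slc25a20, which moves acylcarnitine into mitochondria, measured 151, 190.0 and 168 CPM in GF WT and 75.9, 95.96 and 77.99 in GF LKO (log2 fold change -1.03, SE 0.12, adjusted p = 0.000209). Acsl1, which activates fatty acids to acyl-CoA, measured 1337, 1552 and 1398 CPM in GF WT and 874, 845 and 742 in GF LKO (log2 fold change -0.80, SE 0.12, adjusted p = 0.000863). For these 3 genes the lowest WT mouse was above the highest LKO mouse. Smaller decreases were those of Eci2 (-0.80), Acadl (-0.60) and Acaa2 (-0.55; lost without WT replicate 2 (0.07), WT replicate 3 (0.0629) or LKO replicate 1 (0.0695)), enzymes of the β-oxidation cycle. Cpt1a, the gatekeeper of entry into mitochondria, measured 386, 362 and 250.3 CPM in GF WT and 232, 225 and 194 in GF LKO. Its groups did not overlap, but it missed the threshold (log2 fold change -0.62, adjusted p = 0.0542), and passed it without WT replicate 3 (0.0107).

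Target genes of PPARα had the lowest median of the pathway lists. Of 25 tested 13 fell and 0 rose, with a median of -0.69, and 8 fell without WT replicate 3. Cyp4a14, an ω-hydroxylase of fatty acids, measured 1466, 2241 and 1809.7 CPM in GF WT and 74.5, 107 and 100.3 in GF LKO (log2 fold change -4.29, SE 0.29, adjusted p = 1.16e-06). Cyp4a10, of the same family, measured 747, 1275 and 963 CPM in GF WT and 63.2, 135 and 74.1 in GF LKO (log2 fold change -3.46, SE 0.33, adjusted p = 2.35e-05). Reads that fit several Cyp4a or Acot copies were not counted, so the split within these families is uncertain. Acot3, an acyl-CoA thioesterase, measured 3.79, 6.55 and 15.7 CPM in GF WT and 0.108, 0.355 and 0.218 in GF LKO (log2 fold change -5.24, SE 0.76, adjusted p = 0.000823). Aldh3a2, which oxidises fatty aldehydes, measured 398, 499 and 483 CPM in GF WT and 76.3, 98.4 and 80.8 in GF LKO (log2 fold change -2.43, SE 0.18, adjusted p = 2.86e-06). Retsat, retinol saturase, measured 494, 641 and 429 CPM in GF WT and 136, 117 and 127 in GF LKO (log2 fold change -2.04, SE 0.14, adjusted p = 1.22e-06). All of these were lower in every LKO mouse. Ppara itself measured 89.7, 67.9 and 72.3 CPM in GF WT and 53.7, 46.03 and 42.6 in GF LKO. It fell without overlap (log2 fold change -0.69, SE 0.17, adjusted p = 0.0384), but was lost without WT replicate 1 (0.144), WT replicate 2 (0.0574), WT replicate 3 (0.0698), LKO replicate 1 (0.0597), LKO replicate 2 (0.134) or LKO replicate 3 (0.182).

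In peroxisomes, which shorten very long fatty acids, 9 of 31 tested genes fell and 1 rose. This was 32.3% called, beside 4.44% of all genes, with a median of -0.26. Ehhadh, the bifunctional enzyme of peroxisomal oxidation, measured 783, 796 and 715 CPM in GF WT and 344, 354 and 318 in GF LKO (log2 fold change -1.17, SE 0.14, adjusted p = 0.000143). Acaa1b, the thiolase, measured 782, 1054 and 789 CPM in GF WT and 256, 290.5 and 203 in GF LKO (log2 fold change -1.81, SE 0.18, adjusted p = 3.83e-05). Every LKO mouse was below every WT mouse for both. Abcd2, a transporter of very long acyl-CoA, measured 10.8, 9.82 and 19.3 CPM in GF WT and 1.18, 1.66 and 0.926 in GF LKO (log2 fold change -3.40, SE 0.47, adjusted p = 0.00058). Hsd17b4 fell by 0.68 on the log2 scale, and Scp2, a sterol carrier and thiolase, was the 1 member that rose (0.49; lost without WT replicate 2 (0.103), WT replicate 3 (0.0627) or LKO replicate 2 (0.0851)). Of 7 genes of ketone bodies 3 fell (42.9% called). Bdh1, which makes β-hydroxybutyrate, measured 206, 200.2 and 199 CPM in GF WT and 133, 127 and 124 in GF LKO (log2 fold change -0.66, SE 0.11, adjusted p = 0.00286). Acat1 also fell (-0.51; lost without WT replicate 2 (0.0756), WT replicate 3 (0.0749), LKO replicate 1 (0.0864) or LKO replicate 3 (0.0701)).

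**Figure D2:**
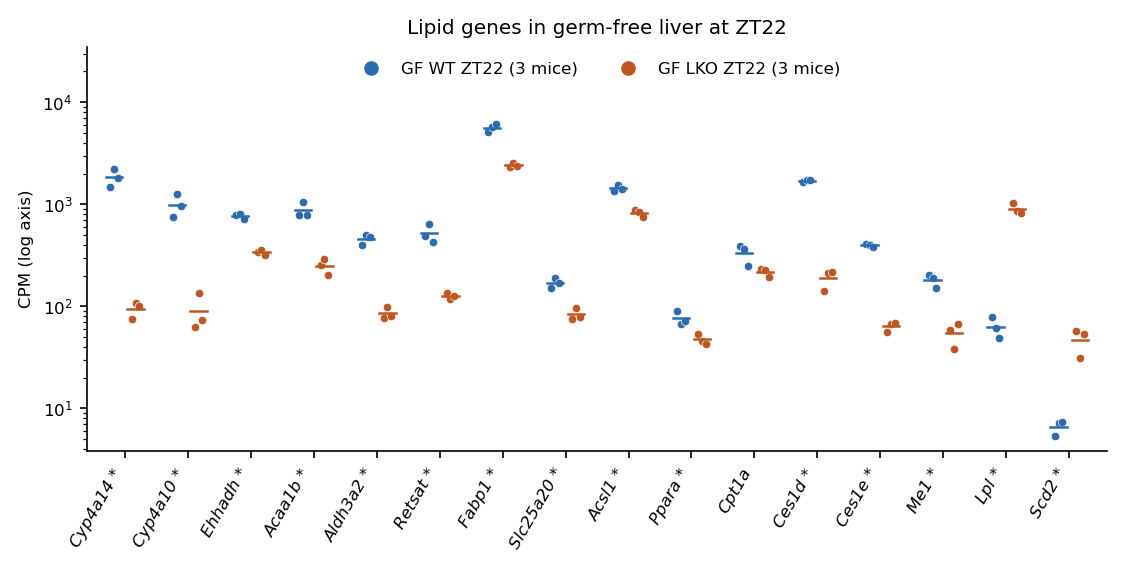
Expression of 16 genes of lipid metabolism in germ-free liver at ZT22. The y axis is CPM on a log scale, each point is 1 mouse (blue, GF WT; orange, GF LKO), bars are means of 3 mice, and asterisks mark an adjusted p under 0.05. Cyp4a14 and Cyp4a10 show the widest downward gap and Lpl, with 817 CPM or more in LKO mice, the widest upward gap among those drawn.

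Of 24 genes of triglyceride handling 3 fell and 2 rose (20.8% called, beside 4.44% of all genes). Ces1d, a triglyceride hydrolase of the endoplasmic reticulum, measured 1640.4, 1725 and 1747 CPM in GF WT and 139.9, 212 and 215 in GF LKO (log2 fold change -3.17, SE 0.18, adjusted p = 3.6e-07). Gpat3, which starts glycerolipid synthesis, measured 1.99, 2.699 and 5.88 CPM in GF WT and 0.538, 0.355 and 0.0545 in GF LKO (log2 fold change -3.45, SE 0.56, adjusted p = 0.00214). Lipc, hepatic lipase, measured 249.7, 249 and 233 CPM in GF WT and 357, 388 and 399.8 in GF LKO (log2 fold change 0.65, SE 0.12, adjusted p = 0.0048). Lipc and Lpl, both lipases that act on lipoproteins, were the 2 that rose. Of 18 lipogenic genes 3 fell and 1 rose (22.2% called). The 3 became 1 without WT replicate 2 and 2 without LKO replicate 2 or LKO replicate 3. Me1, malic enzyme, which supplies NADPH, measured 202, 189 and 149.7 CPM in GF WT and 58.3, 38.2 and 66.99 in GF LKO (log2 fold change -1.72, SE 0.23, adjusted p = 0.000386). Scd2, a fatty acid desaturase, measured 5.399, 7.12 and 7.43 CPM in GF WT and 56.8, 31 and 53.8 in GF LKO (log2 fold change 2.83, SE 0.27, adjusted p = 2.35e-05). Fads1 (-0.73; lost without WT replicate 2 (0.0614) or LKO replicate 2 (0.067)) and Fads2 (-0.56; lost without WT replicate 2 (0.0976) or LKO replicate 3 (0.103)), desaturases of polyunsaturated fatty acids, fell. Of 26 genes of cholesterol synthesis edgeR called 0, with 4 under an unadjusted p of 0.05 and 1 called by DESeq2, and the list's median was 0.21.

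Carbohydrate genes were called at 0% to 7.41% a list, near the 4.44% of all genes. Of 27 glycolytic genes 2 fell, of 19 gluconeogenic genes 1, of 20 glycogen genes 1 and of 18 genes of insulin signalling 0, and none rose. For insulin signalling 3 genes were under an unadjusted p of 0.05 in edgeR, and DESeq2 called 2. The gluconeogenic gene was Mdh2, a malate dehydrogenase (-0.39; lost without any single library). Eno1, an enolase, measured 101, 117 and 91.2 CPM in GF WT and 65.5, 53.7 and 68.5 in GF LKO (log2 fold change -0.72, SE 0.14, adjusted p = 0.00644). Slc2a2, the glucose transporter GLUT2, measured 409, 328 and 318 CPM in GF WT and 240.1, 187 and 236 in GF LKO (log2 fold change -0.67, SE 0.16, adjusted p = 0.0268; lost without WT replicate 1 (0.113), WT replicate 2 (0.0588), LKO replicate 1 (0.0568), LKO replicate 2 (0.136) or LKO replicate 3 (0.0694)). Gys2, glycogen synthase, measured 149, 138 and 144 CPM in GF WT and 90.9, 79.5 and 96.8 in GF LKO (log2 fold change -0.69, SE 0.12, adjusted p = 0.00268). These 3 genes did not overlap between genotypes. Fbp1 measured 909, 964 and 878 CPM in GF WT and 693, 904 and 722 in GF LKO, with overlapping groups (adjusted p = 0.538). Pck1, the rate-limiting enzyme of gluconeogenesis, varied widely among WT mice, 5239, 2254 and 945 CPM in GF WT and 2834, 2341 and 2369.9 in GF LKO (adjusted p = 0.954). Its mitochondrial counterpart Pck2 was near 1 to 2 CPM in all mice (adjusted p = 0.382).

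The list of conjugating enzymes and esterases held the most calls. Of 57 tested enzymes of conjugation and ester cleavage 20 fell and 8 rose (49.1% called, beside 4.44% of all genes). With any 1 library left out the 8 became 5 to 7 and the 20 became 16 to 18. Glutathione transferases split by class. Gstt1, Gstt2, Gstt3, Gsta2, Gsta3 and Gsta4, glutathione transferases of the theta and alpha classes, fell, whereas Gstm1, Gstm2, Gstm3, Gstm6 and Gstm7 of the mu class rose. Gstt3 was lost without WT replicate 2 (0.062), LKO replicate 1 (0.0723) or LKO replicate 3 (0.0594). Gstm2 measured 35.8, 46.5 and 45.4 CPM in GF WT and 184, 272 and 190.3 in GF LKO (log2 fold change 2.34, SE 0.23, adjusted p = 3.43e-05). Gstm3 measured 31.6, 32.2 and 35.3 CPM in GF WT and 147, 161 and 177 in GF LKO (log2 fold change 2.29, SE 0.29, adjusted p = 0.00032). Every LKO mouse was above every WT mouse for both, while Gstm1 was lost without WT replicate 1 (0.0615), WT replicate 3 (0.0931) or LKO replicate 3 (0.0772). The carboxylesterases Ces1b, Ces1c, Ces1d, Ces1e, Ces1f and Ces1g fell, Ces1c by only 0.43 on the log2 scale and lost without any single library (0.0917 to 0.192). Ces1e measured 409, 400.3 and 379.6 CPM in GF WT and 56.5, 67.6 and 68.4 in GF LKO (log2 fold change -2.63, SE 0.12, adjusted p = 6e-08). Ces1f measured 685, 697 and 734 CPM in GF WT and 168, 269 and 191 in GF LKO (log2 fold change -1.75, SE 0.17, adjusted p = 2.62e-05). Ugt1a9, which conjugates glucuronic acid, measured 27.2, 24.8 and 27.5 CPM in GF WT and 2.31, 5.27 and 1.91 in GF LKO (log2 fold change -3.08, SE 0.34, adjusted p = 9.95e-05). Copies of the Gstm, Ces1 and Ugt1a families are near identical, so the split of reads within each family is uncertain.

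Of 36 xenobiotic P450 genes 8 fell and 2 rose (27.8% called, beside 4.44% of all genes). The 2 became 1 without WT replicate 1 or WT replicate 2, and the 8 became 6 or 7 with any 1 library left out. Cyp3a11, the main drug-metabolising P450 of its class in mouse liver, measured 1134, 724 and 748 CPM in GF WT and 139.6, 306 and 167 in GF LKO (log2 fold change -2.09, SE 0.29, adjusted p = 0.000533). Cyp2a5, an oxidase of coumarin, measured 156, 255 and 303 CPM in GF WT and 39.4, 60.7 and 50.2 in GF LKO (log2 fold change -2.25, SE 0.40, adjusted p = 0.00424). Both were lower in every LKO mouse. Cyp2c55 measured 15.2, 7.64 and 14.5 CPM in GF WT and 92.4, 141 and 131 in GF LKO (log2 fold change 3.29, SE 0.29, adjusted p = 1.22e-05). It had the larger of the 2 increases in this list. Of 27 bile acid genes 4 rose and 2 fell (22.2% called), and the 2 became 0 without WT replicate 3 or LKO replicate 1. Cyp7b1, an oxysterol hydroxylase of the alternative bile acid pathway, measured 397, 389 and 341 CPM in GF WT and 1337, 1927 and 1085 in GF LKO (log2 fold change 1.95, SE 0.27, adjusted p = 0.00053). Cyp2c70, which makes muricholic acids, measured 1355, 1359 and 1487 CPM in GF WT and 2831, 3240.3 and 2314 in GF LKO (log2 fold change 1.0, SE 0.16, adjusted p = 0.00221). Slco1a4, an uptake transporter, and Abcg5, a sterol exporter, rose by 1.01 and 0.99 on the log2 scale. Slc10a2, the sodium-dependent bile acid transporter, fell (-1.65; lost without WT replicate 3 (0.0547) or LKO replicate 1 (0.0597)), as did Akr1d1, a steroid reductase (-0.74; lost without WT replicate 3 (0.0557) or LKO replicate 1 (0.0559)).

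Genes with a sex bias in liver moved in both directions in these males. Of 15 tested female-biased genes 6 fell and 5 rose, and of 25 male-biased genes 2 fell and 5 rose. The 6 female-biased genes that fell became 4 without WT replicate 3 or LKO replicate 1 and 5 without any other library. The 5 female-biased genes that rose became 3 without WT replicate 2 or LKO replicate 3 and 4 without any other. The 5 male-biased genes that rose became 3 without WT replicate 2, WT replicate 3 or LKO replicate 2, and 4 without WT replicate 1 or LKO replicate 1. The 2 male-biased genes that fell became 1 without WT replicate 2 or LKO replicate 1 and 0 without any other. Slc22a26, a female-biased transporter, had 104 counts over the WT libraries and 0 over the LKO libraries, at least 32.4-fold lower with the floor of 3 counts over the group. Cyp17a1, a steroid hydroxylase, measured 15.3, 25.5 and 28.5 CPM in GF WT and 2.097, 8.697 and 3.92 in GF LKO (log2 fold change -2.25, SE 0.43, adjusted p = 0.00656). Among female-biased genes Sult1e1, Lpl and Ntrk2 rose and Cyp2b9, Acot3 and Cyp4a14 fell, so the list had no single direction. Mup20, a male urinary protein of a family with near-identical copies, measured 2025, 1404 and 1189.6 CPM in GF WT and 2893, 3172 and 3783 in GF LKO (log2 fold change 1.09, SE 0.21, adjusted p = 0.00761).

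Of 20 genes of secreted liver hormones 3 fell and 2 rose. Serpina12 (vaspin), an adipokine, measured 70.4, 66.1 and 55.8 CPM in GF WT and 349, 386 and 436 in GF LKO (log2 fold change 2.61, SE 0.18, adjusted p = 1.22e-06). Enho, the precursor of adropin, measured 12.5, 22.9 and 23.9 CPM in GF WT and 4.78, 6.09 and 6.21 in GF LKO (log2 fold change -1.79, SE 0.27, adjusted p = 0.000995). Fst, follistatin, also rose (1.72; lost without WT replicate 2 (0.155), WT replicate 3 (0.148), LKO replicate 1 (0.114), LKO replicate 2 (0.0735) or LKO replicate 3 (0.0636)). Rbp4, the retinol carrier (-0.54; lost without any single library), and Selenop, a selenium carrier (-0.50; lost without WT replicate 1 (0.0625), WT replicate 3 (0.0552), LKO replicate 1 (0.0512) or LKO replicate 3 (0.0678)), also fell. Alb, serum albumin, measured 134026, 87938 and 121205 CPM in GF WT and 32104, 34581 and 41632 in GF LKO (log2 fold change -1.66, SE 0.17, adjusted p = 5.41e-05). Albumin was the hepatocyte marker with a call, and the other 5 hepatocyte markers were not called. Cre was also driven by an Albumin promoter, whose sequence in the transgene was not examined. Saa4, an acute-phase apolipoprotein, and Orm3, an orosomucoid, fell (log2 fold changes -1.39 and -2.90), and the acute-phase list as a whole had 2 higher and 2 lower of 25. The 2 that rose were Cp, ceruloplasmin (0.61; lost without WT replicate 2 (0.0936) or LKO replicate 1 (0.0521)), and Itih3, a hyaluronan-binding inhibitor subunit (0.61; lost without WT replicate 1 (0.0977), WT replicate 2 (0.171), WT replicate 3 (0.117) or LKO replicate 1 (0.157)).

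Of 41 genes of amino acid and urea metabolism 4 fell and 2 rose (14.6% called, beside 4.44% of all genes). Prodh2, which degrades hydroxyproline, measured 146, 169 and 175 CPM in GF WT and 67.5, 82.9 and 50.2 in GF LKO (log2 fold change -1.29, SE 0.17, adjusted p = 0.000476). Ahcy, of the methionine cycle, measured 361, 451 and 403 CPM in GF WT and 193, 241 and 233 in GF LKO (log2 fold change -0.87, SE 0.16, adjusted p = 0.00448). Asl, of the urea cycle, and Gpt2, an alanine transaminase, fell (log2 fold changes -0.72 and -0.62). The 2 that rose were Cbs (lost without WT replicate 2 (0.117), WT replicate 3 (0.13) or LKO replicate 2 (0.13)) and Kynu (lost without WT replicate 2 (0.172), WT replicate 3 (0.148), LKO replicate 2 (0.183) or LKO replicate 3 (0.12)). Of 24 genes of heme and iron 4 fell (16.7% called). The 4 became 3 without WT replicate 1, 2 without LKO replicate 1 and 1 without any other. Cpox, of heme synthesis, measured 168, 175 and 199 CPM in GF WT and 93.01, 93.7 and 91.01 in GF LKO (log2 fold change -0.97, SE 0.12, adjusted p = 0.000309). Hamp, which encodes the iron hormone hepcidin, measured 179, 396 and 421 CPM in GF WT and 138, 161 and 78.2 in GF LKO and fell (log2 fold change -1.40, SE 0.37, adjusted p = 0.0465; lost without WT replicate 2 (0.171), WT replicate 3 (0.157), LKO replicate 1 (0.105), LKO replicate 2 (0.0682) or LKO replicate 3 (0.192)).

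Of 7 tested genes of the mitochondrial chromosome 5 fell and 0 rose (71.4% called, beside 4.44% of all genes), with a median of -0.62. The 5 became 3 without WT replicate 2, WT replicate 3, LKO replicate 1 or LKO replicate 3, and 4 without WT replicate 1. mt-Co1, a subunit of cytochrome oxidase, measured 26925, 25502 and 31443 CPM in GF WT and 12567, 18078 and 16443 in GF LKO (log2 fold change -0.83, SE 0.15, adjusted p = 0.00538). The 86 nuclear genes of the respiratory chain had a median of -0.16 with 1 call, Ndufaf6, an assembly factor (0.58; lost without WT replicate 1 (0.0874), WT replicate 2 (0.0953), WT replicate 3 (0.126), LKO replicate 2 (0.13) or LKO replicate 3 (0.141)). The 79 ribosomal protein genes had a median of 0.25 with 1 call, Rpl31 (1.13; lost without WT replicate 1 (0.0577), WT replicate 2 (0.073) or LKO replicate 2 (0.0769)). The shares called were 1.16% for the respiratory chain and 1.27% for ribosomal proteins. Of 26 cell cycle genes 4 rose (15.4% called), all of the MCM helicase that opens DNA for replication. Mcm5 measured 0.621, 0.746 and 1.18 CPM in GF WT and 3.49, 5.98 and 2.89 in GF LKO (log2 fold change 2.27, SE 0.36, adjusted p = 0.00177). The 4 became 1 without any single WT replicate or LKO replicate 2, and 3 without LKO replicate 3. Mcm6, Mcm2 and Mcm4 were highest in LKO replicate 2, at 17.5, 6.69 and 10.9 CPM. Genes of ER stress (24), the immediate early response (16) and the NRF2 response (17) had 0 calls by edgeR. Of these, 5, 2 and 4 were under an unadjusted p of 0.05 in edgeR, and DESeq2 called 2, 0 and 1. The heat shock response had 1 call of 22 (4.55%) and the glucocorticoid response 1 of 16 (6.25%). These were Hspb1, a small heat shock protein (-1.62; lost without WT replicate 1 (0.147), WT replicate 2 (0.0945), LKO replicate 1 (0.118), LKO replicate 2 (0.152) or LKO replicate 3 (0.0678)), and Hsd11b1, which regenerates active glucocorticoid (-0.82).

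**Figure D3:**
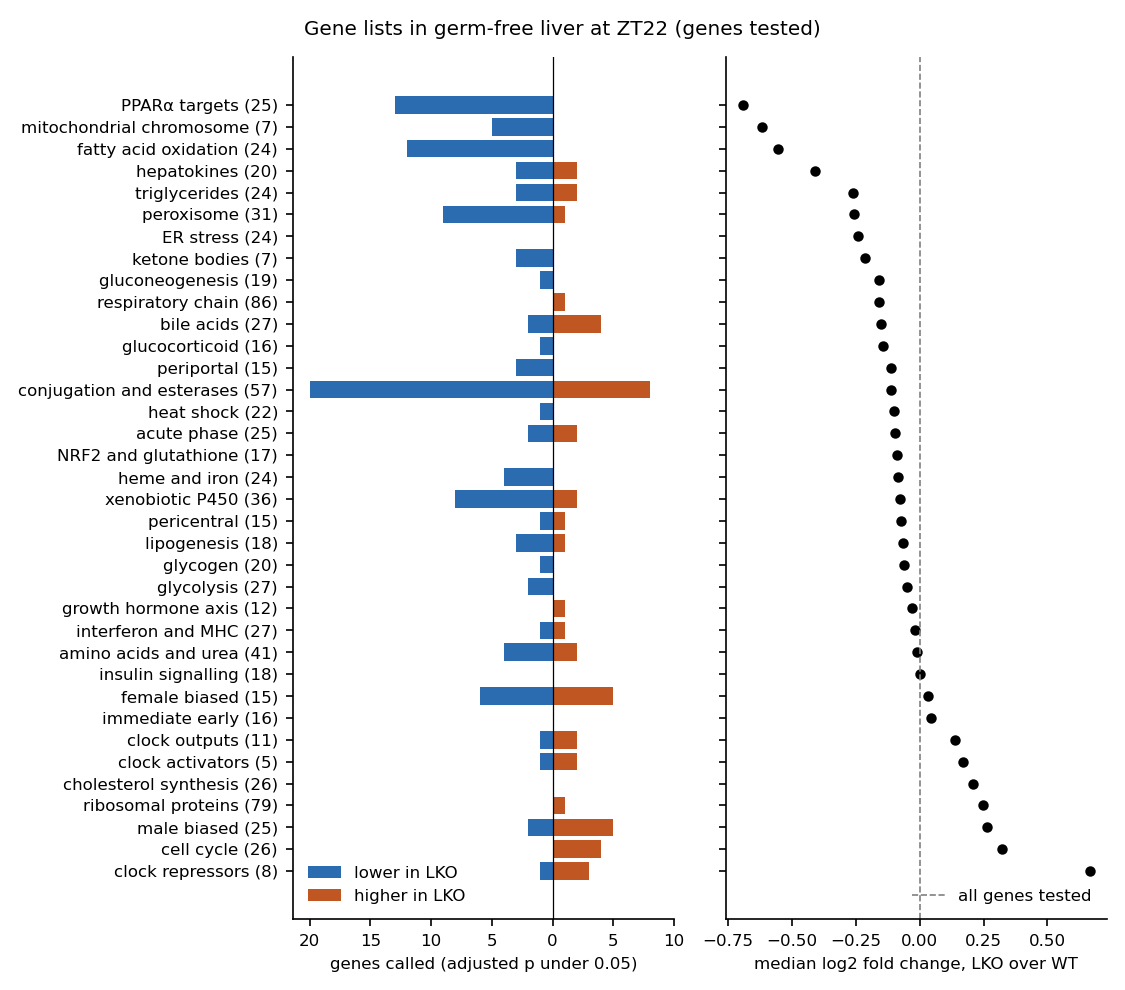
Calls and medians of the gene lists, GF LKO against GF WT at ZT22, with the number of genes tested in brackets. Left, genes called lower (to the left of 0) and higher (to the right of 0) in LKO mice. Right, the median log2 fold change of each list, with all genes tested as a dashed line. PPARα targets (-0.69), the mitochondrial chromosome (-0.62) and fatty acid oxidation (-0.56) lie farthest left.

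Markers of other cells were as follows, and their part in the results was not tested. Summed CPM of 10 Kupffer cell and macrophage markers was 313 to 415 in WT and 307 to 391 in LKO mice, of 9 endothelial markers 255 to 331 and 269.7 to 281, and of 9 stellate cell markers 385 to 497 and 426 to 499, with 0 called in each list by edgeR or DESeq2 (0, 1 and 1 under an unadjusted p of 0.05). The 6 cholangiocyte markers summed to 44.6 to 52.6 and 81.3 to 129 CPM, with 1 of 5 tested called. This was Spp1, which measured 37.8, 42.03 and 34.6 CPM in GF WT and 111, 71.5 and 113 in GF LKO (log2 fold change 1.37, SE 0.28, adjusted p = 0.0104). The 12 lymphocyte markers summed to 13.3 to 16.8 and 14.9 to 33.98 CPM (0 called), and the 6 neutrophil markers to 1.92 to 5.22 and 0.947 to 1.56, with Mpo and Camp at 0 in all 6 libraries. Of 3 neutrophil markers tested S100a8 was called lower (lost without WT replicate 2 (0.169), WT replicate 3 (0.063), LKO replicate 2 (0.125) or LKO replicate 3 (0.128)). The 5 red cell markers summed to 237 to 359.6 and 227 to 253 CPM, with Alas2 called lower (lost without WT replicate 2 (0.0577), WT replicate 3 (0.106), LKO replicate 1 (0.06), LKO replicate 2 (0.0767) or LKO replicate 3 (0.118)). The 5 exocrine pancreas markers summed to 0.248 to 0.344 and 1.12 to 1.77 CPM, with Cpa1 at 0, and Cela2a called (log2 fold change 2.65, SE 0.43, adjusted p = 0.00188). The 3 adipocyte markers were at most 0.557 CPM in sum, with Lep at 0. The 6 hepatocyte markers, Alb among them, summed to 116238 to 167209 and 62004 to 70553 CPM. The sums of cholangiocyte and pancreas markers were thus higher, and those of hepatocyte and neutrophil markers lower, in every LKO mouse, while those of macrophage, endothelial, stellate, lymphocyte and red cell markers overlapped. Single genes carried most of the gap for hepatocyte, cholangiocyte and pancreas markers, but not for neutrophil markers. Without Alb the other 5 hepatocyte markers summed to 28300 to 33183 CPM in WT and 28921 to 30086 in LKO mice. Without Spp1 the other 5 cholangiocyte markers summed to 9.59 to 14.8 and 9.76 to 18.4 CPM. Both sums then overlapped between genotypes. Without Cela2a the other 4 pancreas markers were at 0 in all LKO mice and at most 0.124 CPM in WT mice. Without S100a8 the other 5 neutrophil markers summed to 1.55 to 3.39 CPM in WT and 0.947 to 1.36 in LKO mice, still lower in every LKO mouse, at very low levels.

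The motifs were then counted in the promoters of the called genes that had RefSeq windows, 252 of 340 that fell and 199 of 263 that rose (123 of the 165 named genes had one). D-boxes were present in 3.22% of 342 windows of genes that fell, 1.2% of 249 windows of genes that rose and 0.671% of 13123 windows of genes tested. Over all 32851 RefSeq windows the share was 0.931%. By gene, they were found for 83 of 10234 tested, 3 of 199 that rose and 9 of 252 that fell, the last being Ak4, Alb, Ces1b, Ces1c, Ces1e, Ces1g, Gde1, Gm19522 and Homer2. The Ces1 genes lie side by side and are near copies, so they are not separate cases. E-boxes were present in 6.73% of windows of genes that fell, 8.03% of those that rose and 8.08% of those tested, and in 6.02% of all windows. ROREs were present in 7.02%, 3.21% and 4.36%, and in 5.38% of all windows. The DR1 was rare, with 0.585%, 0% and 0.267%, and 0.338% of all windows. These shares describe letters, with no test, and neither a match nor its absence shows what binds there.

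SPF mice at the same hour show which of these changes also occur with a microbiota. In SPF mice 449 genes were called (3.31%), higher for 1.50% and lower for 1.81% of genes tested, 309 of them shared with GF mice, which is 51.2% of the GF calls and 68.8% of the SPF calls, and all 309 had the same direction. The difference between both genotype effects was called for 2 of 13576 genes (0.0147%). DESeq2 called 11, and 514 genes were under an unadjusted p of 0.05 in edgeR. Ces1e had 296, 246 and 296 CPM in SPF WT and 125, 120.0 and 109.9 in SPF LKO mice, a log2 fold change of -1.24 beside -2.63 in GF mice. The GF effect was larger by 1.39 in size (difference -1.39, SE 0.16, adjusted p = 0.00817). Gpx6 had 1.02, 1.65 and 1.88 CPM in SPF WT and 0.345, 0.479 and 0.687 in SPF LKO mice, so SPF WT mice were far below GF WT mice. Its effect was -1.59 in SPF and -4.74 in GF mice (difference -3.15, SE 0.42, adjusted p = 0.0247). With SPF WT replicate 2 (0.0825), SPF LKO replicate 2 (0.116) or 3 (0.11), any GF WT replicate (0.0881, 0.0804 and 0.0897), or GF LKO replicate 1 (0.0985) or 3 (0.162) left out, Gpx6 was lost. With all 72 libraries in the fit both genes were lost (adjusted p = 0.612 for Ces1e and 0.671 for Gpx6).

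Other genes were called in GF mice only, without a called difference. Cyp3a11 measured 6835, 7011 and 7509 CPM in SPF WT and 7246, 7924 and 4602 in SPF LKO mice, and the difference of effects missed the threshold (-1.98, SE 0.39, adjusted p = 0.433). GF WT mice were at 724 to 1134 CPM, far below the SPF mice of either genotype. Me1 measured 149, 123 and 172 CPM in SPF WT and 119, 169 and 100.4 in SPF LKO mice (difference -1.53, SE 0.31, adjusted p = 0.474). Sult1e1 measured 0.339, 0.4001 and 0.2897 CPM in SPF WT and 2.54, 2.04 and 2.57 in SPF LKO mice (difference 2.97, SE 1.35, adjusted p = 0.997). None of these 3 differences passed the test, which does not show that the effects were equal. Arntl measured 34.1, 35.2 and 40.2 CPM in SPF WT and 16.8, 13.8 and 12.4 in SPF LKO mice (difference -0.32, SE 0.21, adjusted p = 0.997). Of the 24 genes of fat oxidation 8 fell in SPF mice, beside 12 in GF mice, and this pair of counts was not tested.

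**Figure D4:**
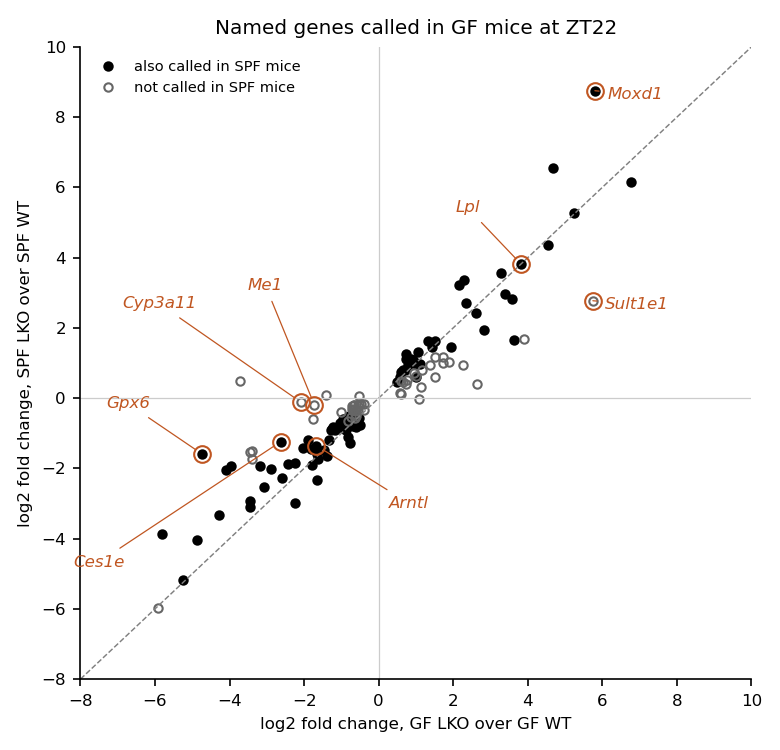
Genotype effects in GF mice (x axis) and SPF mice (y axis) at ZT22, both log2 fold changes of LKO over WT. Each point is a named gene called in GF mice, filled where it was also called in SPF mice and open where it was not, rings and labels mark genes described in the text, and the dashed line marks equal effects. Genes with 3 counts or fewer over a GF group are not drawn. Gpx6 and Ces1e lie above the line, with the larger decrease in GF mice, and Lpl and Arntl lie near it.

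The other 5 ZT of GF mice show where ZT22 stands within the day. For this, all 36 GF libraries were scaled and fitted together, so that CPM differ slightly from those scaled over 12 libraries above, and the genotype effect at ZT22 was compared with the mean effect at ZT2, ZT6, ZT10, ZT14 and ZT18. It differed for 84 of 13806 genes (0.608%), 18 with a higher (0.130%) and 66 with a lower value at ZT22 (0.478%). In 51 of them the effect at ZT22 was smaller with the same sign, in 32 the sign was opposite and in 1 the effect was larger. With ZT22 libraries left out the 84 became 49 without WT replicate 2 or 3, 54 without LKO replicate 1, 50 without LKO replicate 2 and 45 without LKO replicate 3. GF WT replicate 3 at ZT6 stood apart from its group, with Arntl at 7.78 CPM beside 1.53 and 2.30 in replicates 1 and 2, and without it 107 genes were called.

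Clock genes were among the differences with the lowest adjusted p. In WT mice Npas2 averaged 0.122 ± 0.0331 CPM (SD, n = 3) at ZT10 and 11.1 ± 1.04 at ZT22. In LKO mice it averaged 19.2 ± 1.17 and 31.9 ± 9.26. ZT22 was thus near the WT peak, and the genotype effect was smaller than at the other ZT (difference -4.04, adjusted p = 2.52e-10). Arntl averaged 0.576 ± 0.303 CPM in WT mice at ZT10 and 34.3 ± 4.03 at ZT22, against 8.09 ± 1.02 and 10.8 ± 1.83 in LKO mice. The residual Arntl signal of LKO mice was flat, below WT at ZT22 and above it at ZT10 (difference -2.09, adjusted p = 0.00015). Tef averaged 257 ± 9.65 CPM in WT mice at ZT10 and 47.7 ± 7.35 at ZT22, against 112 ± 5.64 and 95.1 ± 9.52 in LKO mice (difference 1.32, adjusted p = 9e-09). Dbp averaged 75.6 ± 20.8 and 0.858 ± 0.157 CPM in WT mice, against 5.28 ± 1.099 and 2.33 ± 0.699 in LKO mice (difference 2.97, adjusted p = 0.00056). LKO mice were below WT mice at ZT10 and above them at ZT22 for both. Nr1d2 (difference 1.66, adjusted p = 6.52e-07) had a log2 fold change of -0.77 at ZT22 but -2.43 on average over the other ZT. Per3 also differed (difference 2.24, adjusted p = 1.54e-05).

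Metabolic genes among them were fewer. Gys2 averaged 589.5 ± 37.9 CPM in WT mice at ZT10 and 134 ± 6.01 at ZT22, against 106 ± 8.53 and 83.1 ± 8.27 in LKO mice. Its decrease in LKO mice was smaller at ZT22 than at the other ZT (difference 1.10, adjusted p = 1.47e-06). Ppard, a fatty acid receptor related to PPARα, averaged 4.49 ± 0.956 and 33.4 ± 4.53 CPM in WT mice and 30.8 ± 6.11 and 42.2 ± 6.53 in LKO mice (difference -1.82, adjusted p = 3.92e-06). Clpx, of a mitochondrial protease, averaged 78.4 ± 4.998 and 539 ± 44.6 CPM in WT mice and 724 ± 26.03 and 588 ± 31.1 in LKO mice (difference -1.58, adjusted p = 1.06e-08). Neither gene was called at ZT22 on its own. Dtx4, a ubiquitin ligase (difference -1.32, adjusted p = 6.05e-07), and Loxl4, a lysyl oxidase (difference -2.81, adjusted p = 1.01e-06), kept a higher level in LKO mice at ZT22, by 0.93 and 2.17 on the log2 scale. All 10 genes named by the rule for this comparison were called with each ZT22 library left out and without GF WT replicate 3 at ZT6.

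None of the 24 fat oxidation genes had a called difference between ZT22 and the rest of the day (0 of 24 by edgeR or DESeq2, 4 under an unadjusted p of 0.05). Over ZT2 to ZT22 the genotype effect on Aldh3a2 ran from -2.84 to -1.63 and that on Fabp1 from -1.43 to -0.88, all on the log2 scale. Both ranges include ZT22 itself, so they do not show whether ZT22 stood apart. The effects at ZT22 differed from the mean of the other ZT by -0.11 and -0.05, without a call by edgeR (adjusted p = 0.978 and 0.986). Lpl ran from 3.56 to 4.48 and Alb from -1.88 to -1.65. Gpx6 and Ces1e had their largest decreases at ZT22 (-4.74 and -2.63), but their differences from the other ZT were not called (adjusted p = 0.516 and 0.142).

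**Figure D5:**
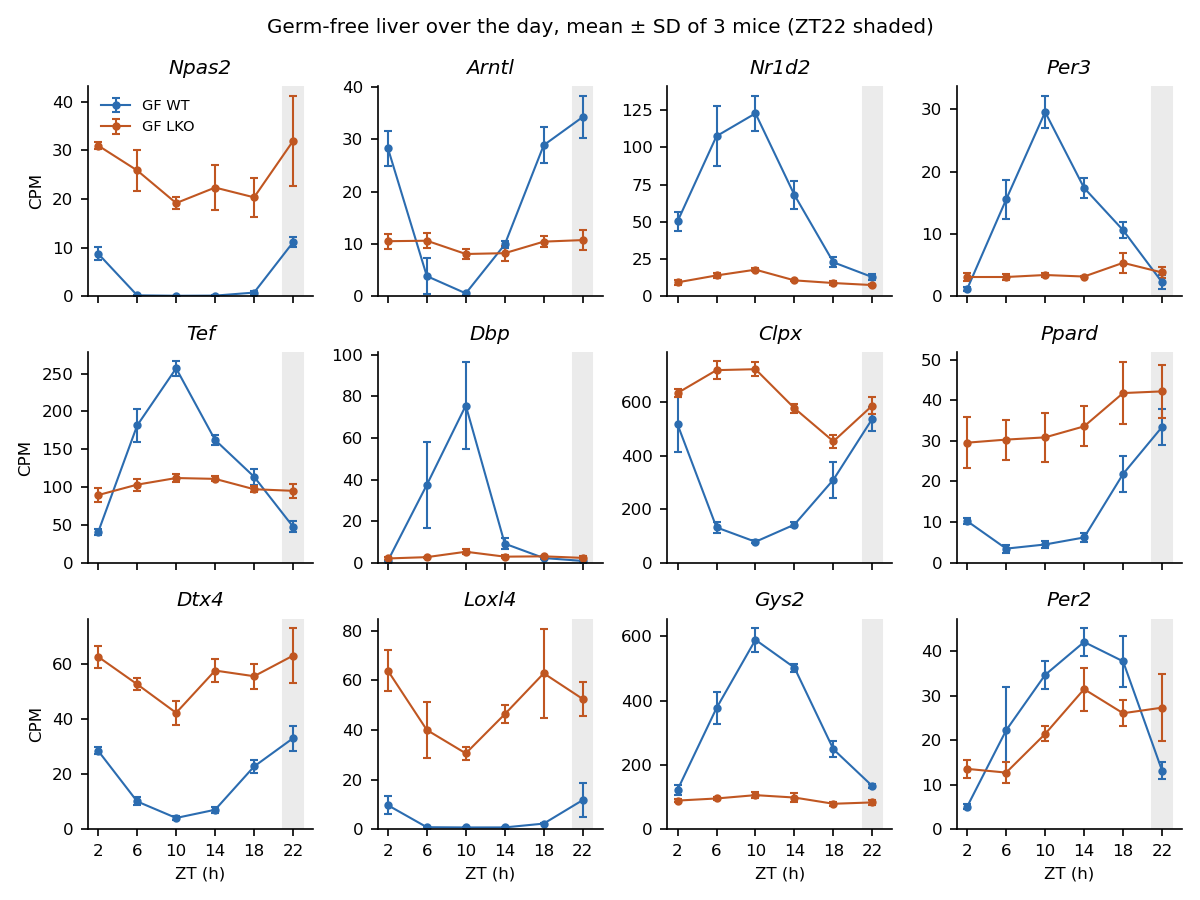
Expression of 12 genes over the day in germ-free liver. The x axis is ZT in hours, the y axis is CPM, points are means of 3 mice with SD bars (blue, GF WT; orange, GF LKO), and ZT22 is shaded. WT curves of Npas2, Ppard and Clpx rise toward the LKO curve at ZT22, whereas those of Tef and Dbp come down below it and that of Gys2 comes down toward it but stays above.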

How the data were processed

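Liver RNA was measured in 72 mice, and 6 libraries are compared here. The authors deposited raw read counts per gene, not normalized. They aligned single-end reads to GRCm38 with STAR 2.6.1b, per the labels, and counted exon reads per gene of the Ensembl annotation with featureCounts 2.0.0, without strand and without reads that fit several places or genes. Libraries were grouped by their labels, 0 columns were left unused, and totals were 17369927 to 22076113 over the 12 libraries at ZT22. Members and gene lists were chosen with earlier results of these data known. Of 55573 genes listed, 31345 had no count in the 6 libraries.

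After edgeR's removal of low counts, genes were tested with edgeR 4.0.16 (R 4.3.3), TMM factors, its two-sided quasi-likelihood test on 4 group means over 12 libraries, and Benjamini-Hochberg adjustment at 0.05. The SE given was derived as the size of the log2 fold change divided by the square root of the test's F statistic. The same fit tested GF minus SPF effects, and a fit of 36 GF libraries tested ZT22 against the mean of the other ZT. The steps were tested on simulated data. Alternatives were DESeq2 1.42.0, RLE scaling, no filter, all 72 libraries, the 6 GF libraries, protein-coding genes, a replicate block, a fold minimum, and each library left out. Named genes were all listed clock genes, 12 largest increases and 12 largest decreases (mean log2 CPM of at least 1, groups not overlapping), up to 6 called genes a direction in each other list, 8 genes of the study's metabolic pathways, and up to 5 a direction for each of the 2 difference tests. Promoters came from RefSeq, GRCm38.p6. Some genes that this rule names are not reported here.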

Additional observations from a re-analysis of the deposited data

Results flagged for a closer look

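These results stand out because the genotype effect itself differed between microbial states or between hours, each by a test of the difference. Between GF and SPF mice at ZT22 the effect was lower in GF mice for Ces1e by -1.39 and for Gpx6 by -3.15 on the log2 scale. Between ZT22 and the mean of the other ZT in GF mice, it was lower at ZT22 for Npas2 (-4.04), Loxl4 (-2.81), Ppard (-1.82), Clpx (-1.58) and Dtx4 (-1.32). It was higher at ZT22 for Dbp (2.97), Per3 (2.24), Nr1d2 (1.66), Tef (1.32) and Gys2 (1.10). Groups of 3 mice were not tested for single samples that stand apart.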

How the results depend on the processing

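The 603 genes of the GF comparison became 1024 with no filter on low counts and 315 with a log2 fold of at least 1, and ranged from 357 (without WT replicate 2) to 470 with single libraries left out. They were 797 by DESeq2 (597 of the 603 among them), 602 with RLE scaling, 672 with all 72 libraries, 542 with the 6 GF libraries only and 562 among protein-coding genes. Replicate numbers did not pair the mice (correlations of deviations 0.0965, 0.0983 and -0.0332 for equal numbers, and not every library was closest to its own number), and a replicate block gave 508.

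The 2 differences between GF and SPF mice became 11 by DESeq2, 137 with no filter, 0 with all 72 libraries and 0 with the replicate block, and 1 to 4 with single libraries left out. Ces1e then had an adjusted p of 0.612 and 0.0548, and Gpx6 of 0.671 and 0.0548, with all 72 libraries and with the block. The 84 differences of ZT22 from the other ZT became 360 with no filter, 38 with all 72 libraries, 77 with the block, and 45 to 107 with single libraries left out (107 without GF WT replicate 3 at ZT6). With all 72 libraries Nr1d2 (0.0586), Dbp (0.0805) and Dtx4 (0.0651) were lost, and the cause was not tested.

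Signs turned only for named genes that were not called. With single libraries left out their log2 fold changes ran from -0.19 (without LKO replicate 1) to 0.12 (without LKO replicate 2; 0.05 without WT replicate 1) for Csnk1e, -0.55 to 0.03 for Noct (0.02 without WT replicate 2), -0.58 to 0.65 for Pck1, -0.30 to 0.77 for Per1 (-0.11 without LKO replicate 3) and -0.02 to 0.45 for Rora. The replicate block gave 0.04 for Pck1. Of 162 named genes tested, calls were lost for 2 with RLE scaling, 9 with the 6 GF libraries, 24 with all 72 libraries, 18 with the block and 28 to 41 with a library left out. Depth limits genes at a few counts a library, such as S100a8 or Slc22a27.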

Other observations

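Of 27 interferon and MHC genes 1 rose and 1 fell (7.41% called, beside 4.44% of all genes). Usp18, an interferon-induced protease, measured 9.12, 6.55 and 8.23 CPM in GF WT and 12.7, 13.2 and 13.7 in GF LKO and rose (log2 fold change 0.73, SE 0.18, adjusted p = 0.035; lost without WT replicate 2 (0.169), WT replicate 3 (0.0858), LKO replicate 1 (0.061), LKO replicate 2 (0.098) or LKO replicate 3 (0.103)). H2-K1, which presents antigen, measured 1239.6, 1178 and 1267 CPM in GF WT and 979, 726 and 676 in GF LKO and fell (log2 fold change -0.63, SE 0.17, adjusted p = 0.0472; lost without WT replicate 1 (0.113), WT replicate 2 (0.107), WT replicate 3 (0.13), LKO replicate 2 (0.193) or LKO replicate 3 (0.204)). Of 15 pericentral genes 1 rose, Slc13a3 (1.12), and 1 fell, Cyp2a5, and of 15 periportal genes 3 fell and 0 rose. Hsd17b13, a lipid droplet protein, measured 567, 403 and 479.6 CPM in GF WT and 263, 243 and 333 in GF LKO (log2 fold change -0.79, SE 0.15, adjusted p = 0.00587), and Ctsc, a lysosomal protease, fell by 0.72 on the log2 scale (lost without WT replicate 1 (0.0708), WT replicate 3 (0.0976), LKO replicate 1 (0.0501), LKO replicate 2 (0.0944) or LKO replicate 3 (0.11)). The other was Alb. The growth hormone axis had 8.33% of its tested genes called. Of 12 genes of the growth hormone axis Prlr, the prolactin receptor, rose (0.71; lost without WT replicate 1 (0.154), WT replicate 2 (0.135), LKO replicate 1 (0.0578), LKO replicate 2 (0.209) or LKO replicate 3 (0.0584)).

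Genes outside the clock lists were also among the 84 that differed between ZT22 and the other ZT in GF mice. They were named after their values were seen, and whether these differences hold with single libraries left out is not reported here. Crot, a peroxisomal carnitine acyltransferase, had a log2 fold change of -0.69 at ZT22 and 0.37 over the other ZT (difference -1.06, adjusted p = 0.0222). Elovl3, a fatty acid elongase, had a log2 fold change of 0.50 at ZT22 and 2.03 over the other ZT (difference -1.53, adjusted p = 0.000501). Thrsp, a lipogenic regulator, had a log2 fold change of 0.11 at ZT22 and -2.02 over the other ZT (difference 2.13, adjusted p = 0.00074). Insig2, a brake on sterol synthesis, had a log2 fold change of 0.47 at ZT22 and 1.62 over the other ZT (difference -1.15, adjusted p = 0.000116). Ces1g, a carboxylesterase, had a log2 fold change of -1.68 at ZT22 and -0.99 over the other ZT (difference -0.69, adjusted p = 0.0123). Ppp1r3c, a glycogen targeting subunit of protein phosphatase, had a log2 fold change of -0.59 at ZT22 and 1.15 over the other ZT (difference -1.74, adjusted p = 0.00223).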
